A study of Mus musculus with 13 samples.

Results

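The 34 genes described here encode enzymes and regulators of cholesterol synthesis, the SREBP system that controls it, fatty acid synthesis and the export of citrate from mitochondria. They were taken by symbol from the gene count tables of 13 mouse hearts. All 34 listed symbols were present, out of 24061 symbols in each table, and all 34 passed the filter on low counts. Polyadenylated RNA of each heart sample was sequenced as 1 library. The mice were males of strain C57BL/6N on a chow diet, at 13 weeks of age. Of the hearts, 4 were WT/WT, 4 were WT/E3A and 5 were E3A/E3A. The E3A allele is a change in CPT1B, the muscle form of carnitine palmitoyltransferase 1, that makes the enzyme less sensitive to malonyl-CoA. No other allele or treatment was named for any group. The comparison made here is whether genes of fatty acid and sterol synthesis differ in transcript level where the gate of fatty acid oxidation is less inhibited.

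Cholesterol is built in the cytosol and endoplasmic reticulum from acetyl-CoA through mevalonate, farnesyl diphosphate, squalene and lanosterol. Fatty acids are built from the same cytosolic acetyl-CoA by way of malonyl-CoA, and malonyl-CoA also inhibits CPT1, the gate for fatty acid entry into mitochondria. When membrane sterol is low, SCAP escorts the SREBP precursors away from INSIG proteins to the Golgi, where they are cut and released as transcription factors for most of the genes listed here. The heart makes little fatty acid compared with liver or fat, and its malonyl-CoA is known chiefly as a brake on fatty acid oxidation.

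Total counts ranged from 20.1 to 52.6 M reads per heart. A note in the labels marks 4 libraries as possible outliers, without a reason: replicate 1 of each genotype, and E3A/E3A replicate 2. They are called the noted libraries, and each comparison was made with all 13 libraries and with the other 9, 3 per genotype. The TMM scaling factors were 0.810 to 0.955 in the noted libraries and 1.03 to 1.09 in the other 9. The biological coefficient of variation over all genes was 28.9% in the 13 libraries and 7.85% in the 9. Levels are given as CPM, a gene's reads relative to all reads of its library after TMM scaling. Cardiomyocyte transcripts were abundant in every library, with Myh6, an adult cardiac myosin, at 35823 CPM or more. The 7 cardiomyocyte markers summed to 70176 to 79630 CPM in the 9 libraries and to 113382 to 165766 CPM in the noted libraries. In bulk heart RNA, fewer cells of a type and less RNA per cell cannot be told apart.

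Promoter bases of 4 listed genes are printed because these genes carry the results below, or, for Hmgcs1, because it alone held a match to the sterol regulatory element. Each line gives the 250 bases before the transcription start from RefSeq (GRCm38.p6), read 5′ to 3′ along the gene. Capitals mark matches on either strand to TCACNCCAC (sterol regulatory element), CCAAT (bound by NF-Y), GGGCGG (bound by Sp1) and CACGTG (E-box). The stretches are chr13:119690101-119690350 on the plus strand for Hmgcs1, chr5:28071162-28071411 on the plus strand for Insig1, chr16:17928220-17928469 on the minus strand for Slc25a1 and chr9:86695915-86696164 on the minus strand for Me1, at the start of its longest gene model.
Hmgcs1: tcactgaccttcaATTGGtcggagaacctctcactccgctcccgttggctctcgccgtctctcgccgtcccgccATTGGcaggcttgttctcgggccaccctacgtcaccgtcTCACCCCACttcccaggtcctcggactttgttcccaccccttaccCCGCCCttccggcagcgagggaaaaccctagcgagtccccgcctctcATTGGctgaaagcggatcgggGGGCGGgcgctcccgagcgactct
Insig1: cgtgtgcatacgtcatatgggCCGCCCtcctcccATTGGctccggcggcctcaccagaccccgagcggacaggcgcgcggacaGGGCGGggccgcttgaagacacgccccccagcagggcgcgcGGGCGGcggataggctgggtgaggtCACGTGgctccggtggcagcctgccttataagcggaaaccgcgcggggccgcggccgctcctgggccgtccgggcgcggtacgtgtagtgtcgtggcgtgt
Slc25a1: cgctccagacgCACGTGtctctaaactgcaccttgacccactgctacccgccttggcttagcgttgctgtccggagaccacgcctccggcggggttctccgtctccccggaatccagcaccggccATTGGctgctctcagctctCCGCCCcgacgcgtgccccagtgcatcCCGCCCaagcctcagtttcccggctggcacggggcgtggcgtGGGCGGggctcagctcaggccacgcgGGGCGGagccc
Me1: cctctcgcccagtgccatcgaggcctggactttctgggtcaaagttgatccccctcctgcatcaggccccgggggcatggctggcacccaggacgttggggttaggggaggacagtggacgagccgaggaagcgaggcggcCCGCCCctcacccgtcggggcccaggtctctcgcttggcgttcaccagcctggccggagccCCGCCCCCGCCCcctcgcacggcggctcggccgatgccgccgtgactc

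The Hmgcs1 stretch held 1 match to the sterol regulatory element, 3 to CCAAT and 2 to GGGCGG, and no E-box. Insig1 and Slc25a1 each held 1 CCAAT and 1 E-box, with 3 and 4 matches to GGGCGG. The Me1 stretch held 3 matches to GGGCGG and none to the other motifs. Of the 34 genes, 27 had at least 1 RefSeq promoter window of 300 bases, from 250 before to 50 after the start. CCAAT on either strand was in a window of 24 of these 27 genes (88.9%), against 41.1% of all genes with a window and 42.3% of protein-coding genes. GGGCGG was in 22 (81.5%, against 38.2% and 49.2%). CACGTG was in 7 (25.9%, against 8.09% and 8.91%): Dhcr7, Elovl5, Hsd17b7, Insig1, Sc5d, Scap and Slc25a1. TCACNCCAC was in 1 (3.7%, against 1.44% and 1.41%). Counted per window, where genes with several starts weigh more, CCAAT was in 69.4% of 36 windows, against 38.2% of protein-coding windows. A match is only a run of letters and not a binding site.

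Levels were compared between genes as CPM per kilobase of transcript in the 3 WT/WT hearts without a note. Me1, the cytosolic malic enzyme that yields NADPH for synthesis, was highest at 34.5 ± 1.12 (SD, n = 3). Insig2, an anchor of SCAP in the endoplasmic reticulum, followed at 22.9 ± 0.531. Acss2, which makes acetyl-CoA from acetate, stood at 16.9 ± 0.238, and Hmgcs1, the HMG-CoA synthase of the mevalonate steps, at 15.6 ± 0.251. The ranges of these 4 genes did not overlap with that of the next gene in the order. Elovl5, Acly, Thrsp, Scap and Srebf1 lay between 11.8 and 12.4, and neighbours among them were not separated by their hearts.

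At the other end were Elovl6 (0.298 ± 0.00934), which elongates palmitate, Idi1 (0.704 ± 0.0695), Lss (0.759 ± 0.102) and Sqle (1.13 ± 0.143), the last being the first oxygen-dependent step of sterol synthesis. The hearts of Idi1 and Lss overlapped, while those of Sqle and Elovl6 stood apart from their neighbours. Idi1 and Elovl6 had 23 to 95 and 27 to 97 reads per library, the lowest depth among the 34 genes. Next were Sqle (47 to 147 reads), Lss (54 to 198 reads) and Tm7sf2 (59 to 184 reads). Fasn, the fatty acid synthase, stood at 4.77 ± 0.478, rank 20 of 34. The plot of levels by gene shows this order.

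**Figure D1:**
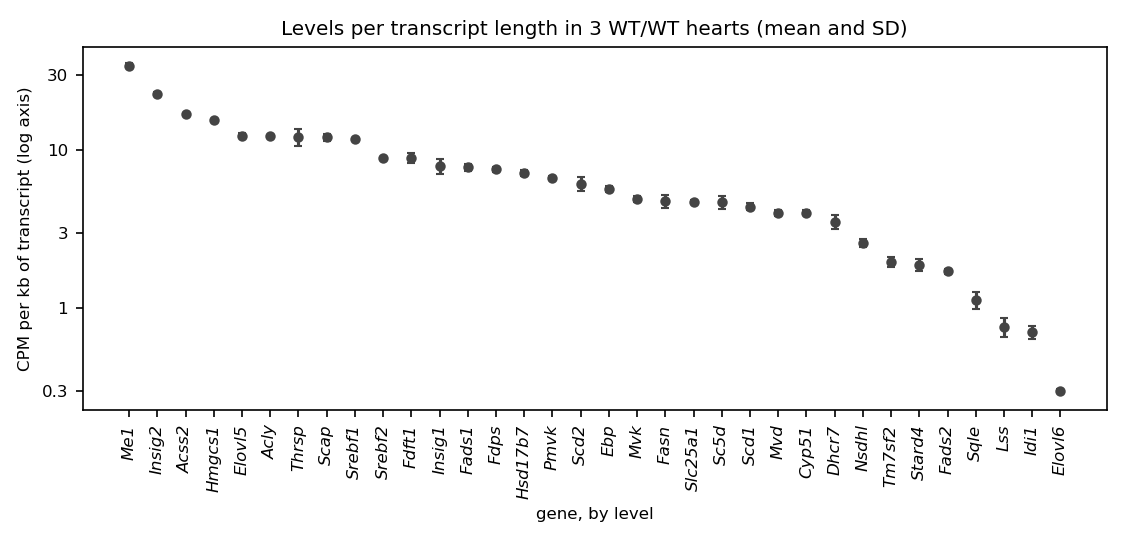
Mean and SD of CPM per kilobase of transcript (log axis) for the 34 genes in the 3 WT/WT hearts without a note, ordered by level. Me1 is highest at 34.5 and Elovl6 lowest at 0.298.

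The noted libraries differed from the other 9 in many of these genes, in every genotype. In 6 genes all 4 noted libraries were above all 9 others: Mvk, Pmvk, Fdps, Srebf2, Acss2 and Fasn. In 10 genes all 4 were below: Hmgcs1, Idi1, Cyp51, Nsdhl, Hsd17b7, Ebp, Sc5d, Insig2, Elovl5 and Fads1. These are 17.6% and 29.4% of the 34 genes, against 26.1% and 26.9% of the 14387 genes tested. Pmvk, phosphomevalonate kinase, had 33.4 CPM in the noted WT/WT heart, 33.8 in the noted WT/E3A heart, and 24.9 and 18.9 in the noted E3A/E3A hearts. Its range in the other 9 was 7.30 to 9.00 CPM, and the ratio of medians was 3.59. Sc5d, a late sterol desaturase, went the other way, at 5.74 to 10.9 CPM in the noted hearts and 19.4 to 24.9 in the others, a ratio of 0.363.

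The genes that stood high and low in the noted libraries differed in base composition. The median GC content of the longest coding transcript was 57.4% for the 6 genes above, 45.3% for the 10 below and 52.2% for the 18 that overlapped. Over all genes the same 3 classes had medians of 55.5%, 44.5% and 50.8%. Across the 34 genes the ratio of medians and GC content had a Spearman correlation of 0.81, and across 13146 genes 0.70, as a description of genes that share the same libraries. The part of GC content in any genotype value was not tested. Without the noted libraries the coefficient of variation over hearts was 5.89% for Pmvk in place of 71.2%, and 7.45% for Sc5d in place of 38.8%.

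**Figure D2:**
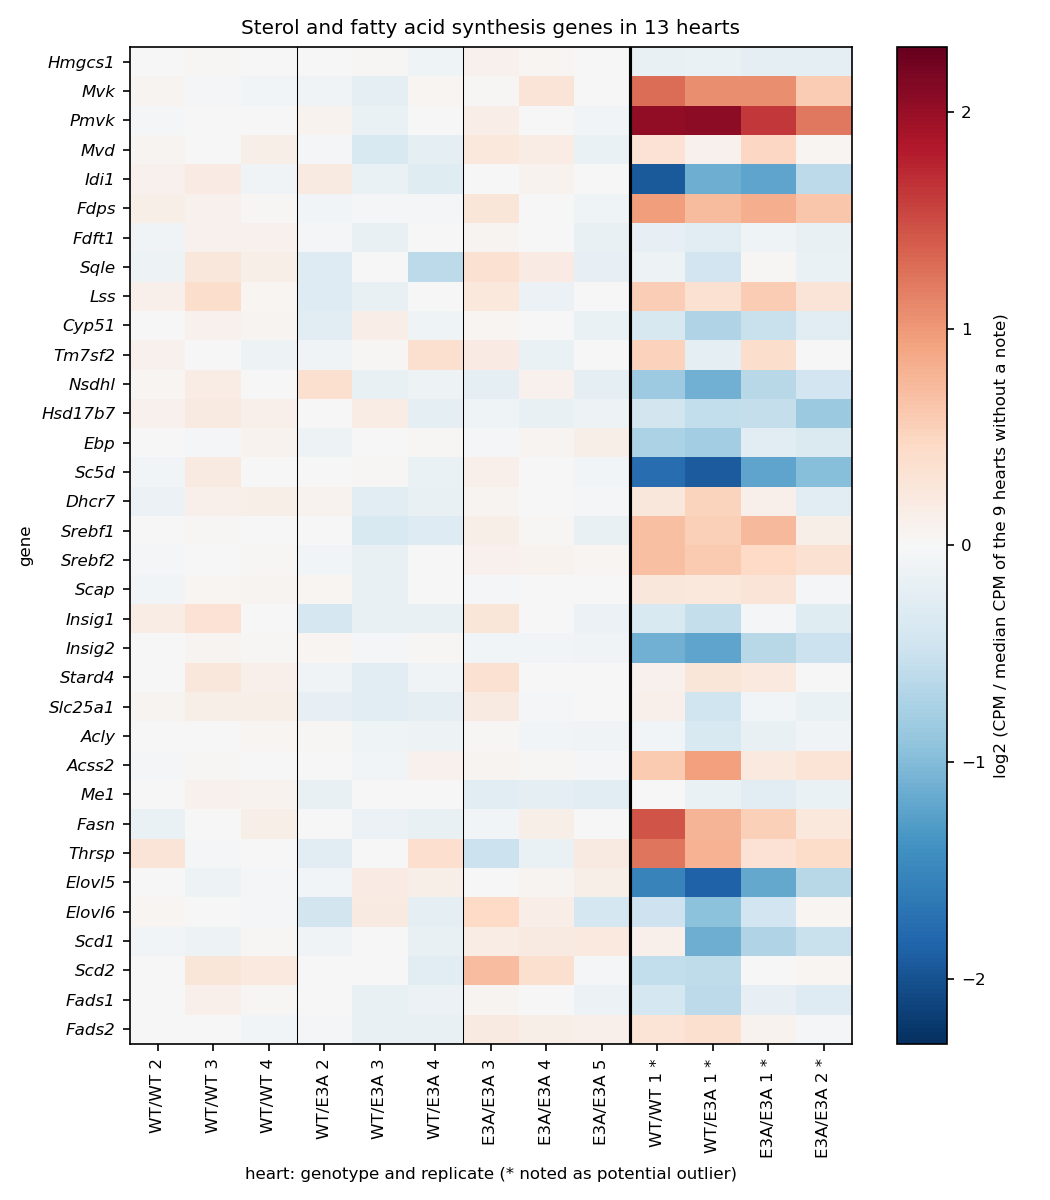
Each cell is log2 of a heart's CPM over the median CPM of the 9 hearts without a note, for 34 genes (rows) and 13 hearts (columns, noted libraries with an asterisk on the right). The 4 noted columns stand apart from the 9 others, with Pmvk high and Sc5d low in each.

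**Figure D3:**
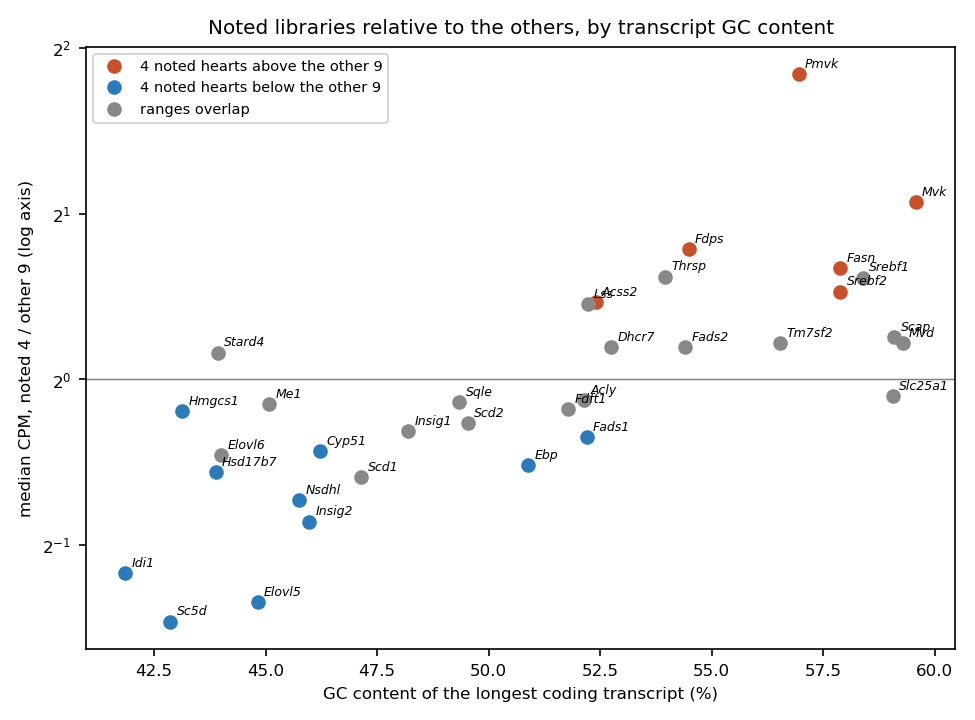
Ratio of the median CPM in the 4 noted hearts to that in the other 9 (log axis), against the GC content of the longest coding transcript in percent, for the 34 genes. Genes above 1 lie mostly at higher GC content, with Pmvk at 3.59 and Sc5d at 0.363.

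Me1 was the only one of the 34 genes called in any comparison, and it fell in E3A/E3A. In the 9 libraries it had 109.3, 115.9 and 115.4 CPM in WT/WT, 96.5, 109.8 and 108.8 in WT/E3A, and 90.4, 94.8 and 91.0 in E3A/E3A. Every E3A/E3A heart was below every WT/WT and WT/E3A heart, and the WT/E3A hearts overlapped with WT/WT. The log2 fold change of E3A/E3A against WT/WT was -0.30 (SE 0.05, adjusted p = 0.0314, edgeR's quasi-likelihood test with Benjamini-Hochberg adjustment over 14373 genes). Thus 1 of 34 listed genes was called, where 0.271% of all genes tested were called in either direction and 0.216% lower. Against WT/E3A, the log2 fold change of Me1 was -0.19 (SE 0.05, unadjusted p = 0.00335, adjusted p = 0.539), and WT/E3A against WT/WT gave -0.11 (SE 0.05, adjusted p = 0.783). These comparisons share hearts.

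The noted hearts had 108.8 CPM of Me1 in WT/WT, 98.1 in WT/E3A, and 90.4 and 98.1 in E3A/E3A, so all 5 E3A/E3A hearts lay below all 4 WT/WT hearts. With all 13 libraries the log2 fold change was -0.27 (SE 0.08, unadjusted p = 0.00398) and the adjusted p was 1, so the gene was not called by edgeR there. DESeq2 called it in the 13 libraries (adjusted p = 0.00173), as did limma-voom with sample quality weights (adjusted p = 0.00854). In the 9 libraries the call was lost with limma-voom (adjusted p = 0.0533) and with the title prefix as a block (log2 fold change -0.29, adjusted p = 0.201). It was also lost without E3A/E3A replicate 3, 4 or 5 (adjusted p = 0.107, 0.0829 and 0.0983), WT/E3A replicate 4 (0.0504) or WT/WT replicate 3 or 4 (0.197 and 0.24), with log2 fold changes of -0.33 to -0.29.

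Me1 lies on chromosome 9 (GRCm38.p6, 86581363 to 86695914, minus strand), and 2061 to 5036 reads per library were assigned to it. Cidea, a lipid droplet protein on the list of 4 brown adipocyte markers, was lower along with it, at 19.8 ± 0.898 CPM in WT/WT and 15.9 ± 1.09 in E3A/E3A (SD, n = 3 each; log2 fold change -0.32, SE 0.07, adjusted p = 0.107). Of these 4 markers 2 were tested, 1 lower (Cidea) and 1 higher (log2 fold change 0.09). The summed level of the 4 markers was 20.8 to 23.5 CPM in WT/WT and 17.4 to 18.8 in E3A/E3A. Cidea made up most of this sum, with a median of 18.9 CPM over the 13 hearts, against 1.65 for Dio2. The defining marker Ucp1 was at 0 in 9 of 13 hearts, all 6 of these WT/WT and E3A/E3A hearts among them. White adipocyte markers other than Fabp4, which endothelium also expresses, summed to 2.43 to 5.56 CPM in WT/WT and 2.92 to 5.96 in E3A/E3A. Their part in the Me1 result was not tested.

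The other genes of cytosolic acetyl-CoA and NADPH supply were not called. Slc25a1, the mitochondrial citrate carrier, had its lowest hearts in WT/E3A: 7.59, 7.93 and 7.97 CPM in WT/WT, 6.32, 6.03 and 6.18 in WT/E3A, and 8.38, 7.02 and 7.25 in E3A/E3A. The WT/E3A hearts were below those of both other genotypes, which overlapped with each other. Its log2 fold change was -0.34 for WT/E3A against WT/WT (SE 0.10, unadjusted p = 0.00327, adjusted p = 0.585) and 0.29 for E3A/E3A against WT/E3A (SE 0.10, unadjusted p = 0.00955, adjusted p = 0.687). The noted hearts had 7.88 CPM in WT/WT, 5.26 in WT/E3A, and 6.97 and 6.55 in E3A/E3A, and with all 13 libraries the values were -0.39 (SE 0.11) and 0.28 (SE 0.10), both with an adjusted p of 1. All WT/E3A hearts were then still below all hearts of either other genotype. Acly, which splits exported citrate into acetyl-CoA, stood at 54.4 ± 0.728 CPM in WT/WT, 51.6 ± 2.77 in WT/E3A and 52.4 ± 1.98 in E3A/E3A. Acss2 stood at 49.6 ± 0.697, 50.1 ± 2.95 and 50.4 ± 1.65 (SD, n = 3 for each of these values).

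**Figure D4:**
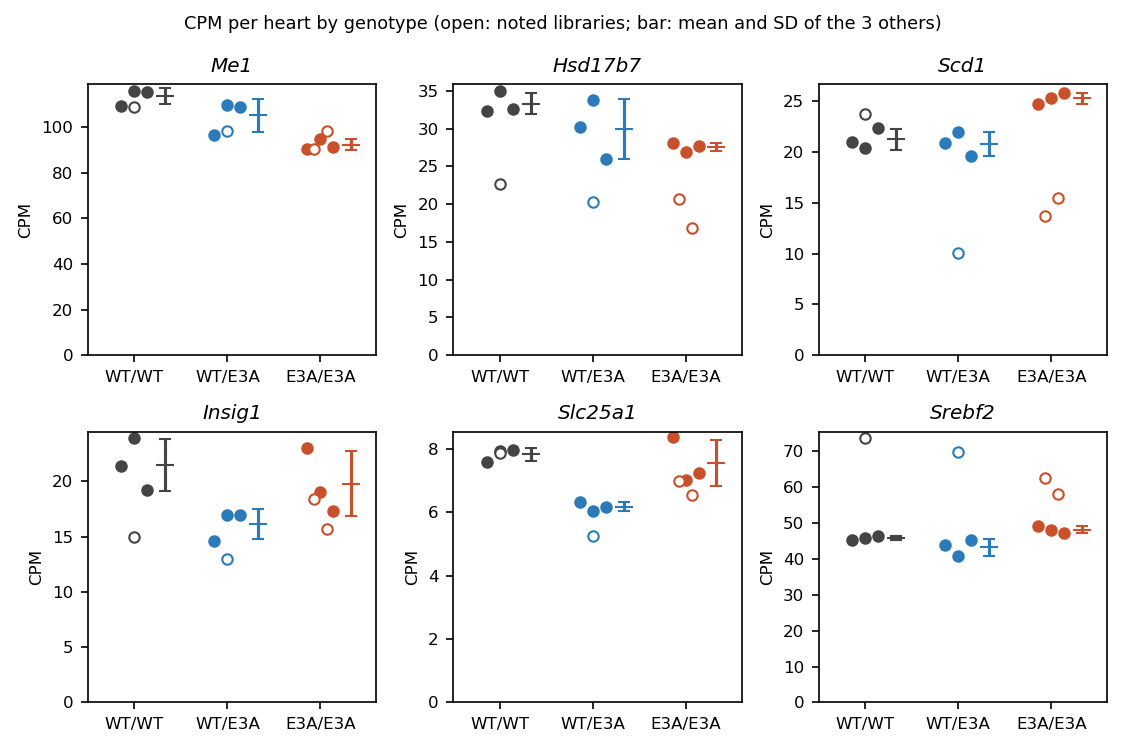
CPM per heart of 6 genes by genotype, with filled points for the 9 hearts without a note, open points for the noted libraries, and bars for the mean and SD of the 3 filled points. Me1 is lowest in E3A/E3A and Slc25a1 in WT/E3A, and the open points of Srebf2 lie above the filled ones.

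None of the 5 genes of SREBP control was called. Insig1, a partner of SCAP and itself an SREBP target, had 21.4, 23.9 and 19.2 CPM in WT/WT, 14.6, 17.0 and 16.9 in WT/E3A, and 23.0, 19.0 and 17.4 in E3A/E3A. The WT/E3A hearts were below all hearts of both other genotypes. The log2 fold change was -0.40 for WT/E3A against WT/WT (SE 0.11, unadjusted p = 0.00326, adjusted p = 0.585) and 0.29 for E3A/E3A against WT/E3A (SE 0.11, adjusted p = 0.694). With all 13 libraries, where the noted WT/WT heart had 14.9 CPM, the groups overlapped and the values were -0.37 (SE 0.17) and 0.28 (SE 0.16).

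Srebf2, the precursor of the factor for sterol genes, had 45.8 ± 0.653 CPM in WT/WT, 43.3 ± 2.38 in WT/E3A and 48.2 ± 1.09 in E3A/E3A (SD, n = 3 each). Each E3A/E3A heart was above all others of the 9, with log2 fold changes of 0.07 (SE 0.05) against WT/WT and 0.16 (SE 0.05, adjusted p = 0.687) against WT/E3A. The noted libraries, at 58.2 to 73.8 CPM, were above all of these in every genotype. Among the noted hearts E3A/E3A was lowest, at 62.7 and 58.2 CPM, against 73.8 in WT/WT and 69.7 in WT/E3A. With all 13 libraries the log2 fold changes of Srebf2 were 0.0087 (SE 0.19) and 0.08 (SE 0.19). Srebf1, whose SREBP-1c form acts on fatty acid genes, had 50.9 ± 0.830, 43.9 ± 5.81 and 50.6 ± 5.54 CPM in WT/WT, WT/E3A and E3A/E3A. Scap had 51.1 ± 2.32, 49.4 ± 3.93 and 50.1 ± 0.989 CPM in the same order. Insig2 had 61.9 ± 1.43, 61.1 ± 1.91 and 57.6 ± 0.429 CPM, with E3A/E3A below the other hearts by a log2 fold change of -0.10 against WT/WT (SE 0.05, unadjusted p = 0.0434, adjusted p = 0.641). In the noted hearts Insig2 was higher in E3A/E3A (38.7 and 42.7 CPM) than in WT/WT (28.0) and WT/E3A (26.0), with a log2 difference of 0.54 against WT/WT within the title prefix C2, and with all 13 libraries the value was -0.07 (SE 0.29). Stard4, which carries cholesterol between membranes, had 9.55 ± 0.845, 7.95 ± 0.542 and 9.60 ± 1.41 CPM, with WT/E3A against WT/WT at -0.26 (SE 0.11, adjusted p = 0.766), and at -0.14 (SE 0.14) with all 13.

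The 6 genes of the mevalonate steps were all lower in WT/E3A than in WT/WT and all higher in E3A/E3A than in WT/E3A in the 9 libraries, with no call. The median log2 fold changes were -0.11 and 0.11. In the 13 libraries 5 of the 6 were lower in WT/E3A than in WT/WT (median -0.08), and 3 were higher and 3 lower in E3A/E3A than in WT/E3A (median 0.07). Mvd, which forms isopentenyl diphosphate, had 7.09, 6.75 and 7.40 CPM in WT/WT, 6.56, 5.28 and 5.81 in WT/E3A, and 8.01, 7.63 and 6.04 in E3A/E3A. WT/E3A was below WT/WT without overlap (log2 fold change -0.28, SE 0.12, unadjusted p = 0.0356, adjusted p = 0.766), and it overlapped with E3A/E3A (0.31, SE 0.12, adjusted p = 0.694). With all 13 the Mvd hearts of WT/E3A and WT/WT overlapped (-0.25, SE 0.15). Fdps, farnesyl diphosphate synthase, had 10.5 ± 0.371, 9.51 ± 0.0436 and 10.3 ± 1.46 CPM in WT/WT, WT/E3A and E3A/E3A. Hmgcs1, which makes HMG-CoA, varied least of the 6, at 54.1 ± 0.870, 52.8 ± 2.4 and 55.5 ± 1.78 CPM, with a coefficient of variation of 3.58% over the 9 hearts. For Mvk, Pmvk and Idi1 the log2 fold changes of the 3 comparisons lay between -0.14 and 0.21.

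Among the 10 genes from squalene to cholesterol, Hsd17b7 had the lowest unadjusted p. It encodes the sterol 3-ketoreductase of the demethylation steps. Its levels were 32.4, 34.9 and 32.6 CPM in WT/WT, 30.2, 33.8 and 25.9 in WT/E3A, and 28.0, 26.9 and 27.7 in E3A/E3A. E3A/E3A was below WT/WT without overlap, while WT/E3A overlapped with both. The log2 fold change of E3A/E3A against WT/WT was -0.27 (SE 0.08, unadjusted p = 0.00401, adjusted p = 0.272). With all 13 libraries it was -0.35 (SE 0.20), and the noted hearts, at 16.8 to 22.6 CPM, were below all others.

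Sqle, squalene epoxidase, had 2.68, 3.45 and 3.18 CPM in WT/WT, 2.34, 2.89 and 1.91 in WT/E3A, and 3.67, 3.28 and 2.54 in E3A/E3A. The WT/E3A hearts overlapped with both groups (log2 fold changes -0.35, SE 0.18, against WT/WT and 0.41, SE 0.18, for E3A/E3A against WT/E3A, adjusted p = 0.786 and 0.717). Lss, lanosterol synthase, had 3.54 ± 0.475 CPM in WT/WT, 2.80 ± 0.280 in WT/E3A and 3.20 ± 0.424 in E3A/E3A. Its WT/E3A hearts were all below those of WT/WT (log2 fold change -0.32, SE 0.15, adjusted p = 0.778). Over all 13 the Lss groups overlapped (-0.29, SE 0.19), and Sqle stood at -0.36 (SE 0.17) and 0.37 (SE 0.17). The other 7 genes of these steps, Fdft1, Cyp51, Tm7sf2, Nsdhl, Ebp, Sc5d and Dhcr7, had log2 fold changes between -0.17 and 0.12 in the 3 comparisons of the 9 libraries.

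Fasn and Thrsp, a small nuclear protein that promotes lipogenic expression, were not called. Fasn had 47.9 ± 4.8 CPM in WT/WT, 44.6 ± 2.92 in WT/E3A and 48.9 ± 3.30 in E3A/E3A. The noted WT/WT heart had 131 CPM and the noted WT/E3A heart 82.3, so that with all 13 libraries Fasn stood at -0.33 (SE 0.32) for E3A/E3A against WT/WT, in place of 0.03 (SE 0.08). Thrsp had 17.8, 14.2 and 14.6 CPM in WT/WT, 12.2, 14.7 and 19.1 in WT/E3A, and 10.3, 13.1 and 16.9 in E3A/E3A, with overlap among all groups. Its noted hearts were between 18.3 and 34.3 CPM.

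Of the 6 elongases and desaturases, 5 were higher in E3A/E3A than in WT/WT and 5 higher than in WT/E3A in the 9 libraries, with no call and median log2 fold changes of 0.15 and 0.25. Across the 13 libraries 4 and 5 of the 6 were higher, with medians of 0.05 and 0.15. Scd1, the stearoyl-CoA desaturase that makes oleate, had 21.0, 20.4 and 22.4 CPM in WT/WT, 20.8, 22.0 and 19.6 in WT/E3A, and 24.8, 25.4 and 25.8 in E3A/E3A. Every E3A/E3A heart of the 9 was above the hearts of both other genotypes. The log2 fold change was 0.25 against WT/WT (SE 0.06, unadjusted p = 0.00157, adjusted p = 0.178) and 0.28 against WT/E3A (SE 0.06, unadjusted p = 0.00073, adjusted p = 0.338). The noted libraries had 23.8 CPM in WT/WT, 10.1 in WT/E3A, and 13.7 and 15.5 in E3A/E3A, so E3A/E3A was below WT/WT among them and above WT/E3A. With all 13 libraries the value against WT/WT was -0.06 (SE 0.24), so the sign turned, and against WT/E3A it was 0.21 (SE 0.25).

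Plin1, a lipid droplet coat of white adipocytes and 1 of 8 white adipocyte markers, was at 0.366, 0.275 and 0.412 CPM in WT/WT and at 0.187, 0.375 and 0.244 in WT/E3A. It was at 0.574, 0.819 and 0.725 CPM in E3A/E3A, in the same hearts in which Scd1 was high. The noted hearts had 2.86 CPM of Plin1 in WT/WT, 0.888 in WT/E3A, and 0.923 and 0.178 in E3A/E3A. Of the 8 markers 6 were tested, 4 of them higher and 2 lower in E3A/E3A than in WT/WT in the 9 libraries. With all 13 libraries 1 was higher and 5 were lower. Their sum without Fabp4 overlapped between the genotypes as given beside Me1, with 3.17 to 5.80 CPM in WT/E3A. Adipoq was at 0 to 1.39 CPM over the 13 hearts. The part of these cells in the Scd1 values was not tested.

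Scd2 had 33.6 ± 3.47, 28.5 ± 2.58 and 39.0 ± 10.1 CPM in WT/WT, WT/E3A and E3A/E3A, and 1 heart, E3A/E3A replicate 3 at 49.3 CPM, was above the other 8. Reads that fit both Scd1 and Scd2 could have been split or dropped in the counting, which the sources used here do not give, so the values of this pair are uncertain to that extent. Fads2, the delta-6 desaturase, had 5.39 ± 0.165, 5.02 ± 0.316 and 6.07 ± 0.207 CPM, with E3A/E3A above the other genotypes (log2 fold changes 0.17, SE 0.10, and 0.28, SE 0.10; adjusted p = 0.746 and 0.694). The noted hearts ran the other way for Fads2, at 6.75 CPM in WT/WT, 7.04 in WT/E3A, and 5.74 and 5.26 in E3A/E3A, and with all 13 libraries the groups overlapped and the values were 0.03 (SE 0.14) and 0.07 (SE 0.14). Fads1, its neighbour on chromosome 19, had 27.0 ± 1.36, 24.5 ± 1.54 and 25.8 ± 1.65 CPM. Elovl5, which elongates polyunsaturated chains, had 34.5 ± 1.36, 38.2 ± 3.34 and 37.7 ± 1.69 CPM, with log2 fold changes of 0.15 (SE 0.07, adjusted p = 0.767) for WT/E3A and 0.12 (SE 0.07, adjusted p = 0.736) for E3A/E3A against WT/WT, which were 0.10 (SE 0.45) and 0.07 (SE 0.43) with all 13. Elovl6 had 1.77 ± 0.0556, 1.62 ± 0.382 and 1.90 ± 0.548 CPM.

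As a set, the 34 genes were lowest in WT/E3A. In the 9 libraries 31 of 34 were lower and 3 higher in WT/E3A than in WT/WT, with a median log2 fold change of -0.10, where 49.5% of all genes were higher and the median of all genes was -0.0013. None was called, where 0.0209% of all genes were. At an unadjusted p under 0.05 stood 5 lower (Mvd, Srebf1, Insig1, Stard4 and Slc25a1) and 1 higher (Elovl5), where 3.03% and 3.33% of all genes did. This count of 6 listed genes, not followed gene by gene, became 10 with quality weights in limma-voom and 3 with DESeq2. It was 3 without WT/WT replicate 3 or 4, which are the hearts of prefix C6, while leaving out the other hearts gave 5 to 9. With the title prefix as a block, WT/WT replicate 2 alone carried that genotype, and the median log2 fold change was -0.05. The hearts did not overlap for 6 genes lower in WT/E3A, Mvd, Fdps, Lss, Insig1, Stard4 and Slc25a1, and for 0 higher, where 6.32% and 6.34% of all genes did so. The highest values were those of Elovl5, Tm7sf2 and Acss2, the 3 that were above WT/WT.

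The comparison of E3A/E3A against WT/E3A shares those WT/E3A hearts, and its values are set beside the others for that reason only. Of the 34 genes 27 were higher and 7 lower, with a median of 0.09, where 50.8% of all genes were higher. None was called, where 0.0417% of all genes were. At an unadjusted p under 0.05 stood 10 higher and 1 lower, Me1, where 4.04% and 2.87% of all genes did. This count of 11 listed genes became 4 without E3A/E3A replicate 3, 6 with the title prefix as a block, and 7 without E3A/E3A replicate 4. The hearts did not overlap for 6 genes higher, Srebf2, Insig1, Stard4, Slc25a1, Scd1 and Fads2, and for 2 lower, Insig2 and Me1, where 5.93% and 5.25% of all genes did so.

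In E3A/E3A against WT/WT 16 genes were higher and 18 lower in the 9 libraries, where 50.6% of all genes were higher, with a median of -0.0099. Without E3A/E3A replicate 3 these became 10 higher and 24 lower, with a median of -0.08. At an unadjusted p under 0.05 stood 1 higher (Scd1) and 3 lower (Hsd17b7, Insig2 and Me1), where 4.52% and 3.17% of all genes did. The hearts did not overlap for 4 genes higher, Srebf2, Elovl5, Scd1 and Fads2, and for 3 lower, Hsd17b7, Insig2 and Me1, where 7.36% and 6.69% of all genes did so. WT/E3A had the lowest mean of the 3 genotypes for 26 of the 34 genes, where it had the lowest mean for 34.1% of all genes. E3A/E3A was lowest for 5 and WT/WT for 3, while WT/WT was highest for 18, E3A/E3A for 14 and WT/E3A for 2.

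**Figure D5:**
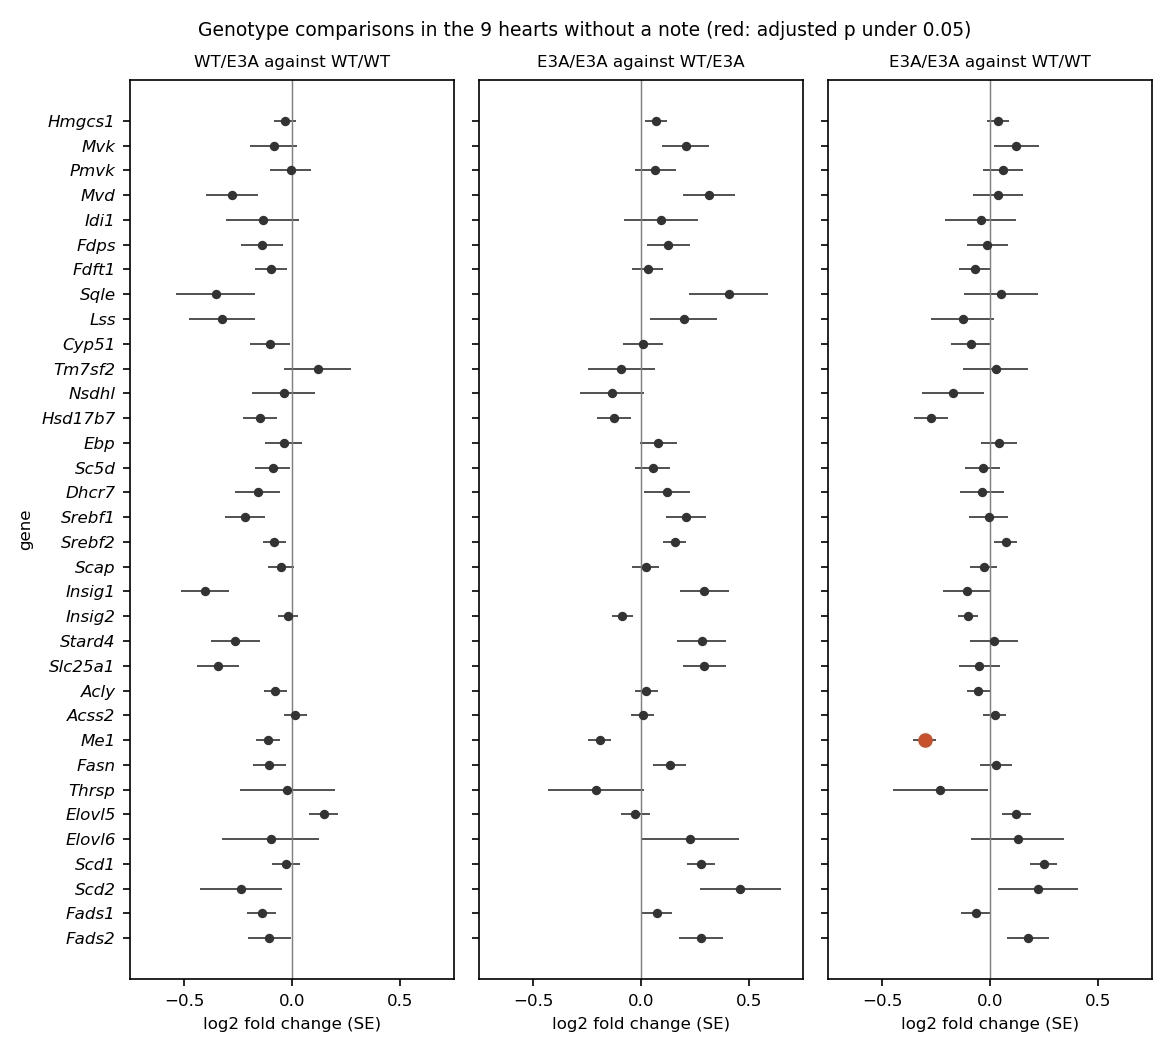
Log2 fold change and SE of the 34 genes in the 3 comparisons of the 9 hearts without a note, with the gene called at an adjusted p under 0.05 in red. The points of WT/E3A against WT/WT lie mostly left of 0 (31 of 34), those of E3A/E3A against WT/E3A mostly right (27 of 34), and Me1 is the red point.

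With all 13 libraries no listed gene was called by edgeR. In E3A/E3A against WT/WT 0.00695% of all genes were called, and 11 listed genes were higher and 23 lower, where 43.7% of all genes were higher. Of the listed genes 0 higher and 1 lower (Me1) had an unadjusted p under 0.05, where 0.584% and 0.619% of all genes did, and 1 (Me1) was lower without overlap, where 0.535% were. In WT/E3A against WT/WT 0% of all genes were called, and 3 listed genes were higher and 31 lower, where 49.4% of all genes were higher. With an unadjusted p under 0.05 were 0 listed genes higher and 2 lower (Slc25a1 and Insig1), where 0.327% and 0.487% of all genes were, and Slc25a1 was lower without overlap, where 0.591% were. In E3A/E3A against WT/E3A 0% were called, and 22 listed genes were higher and 12 lower, where 45% of all genes were higher. With an unadjusted p under 0.05 were 2 listed genes higher (Slc25a1 and Sqle) and 0 lower, where 0.883% and 0.563% of all genes were, and Slc25a1 was higher without overlap, where 0.542% were. DESeq2 called 0 listed genes in both comparisons with WT/E3A, with 13 and with 9 libraries, as did limma-voom with and without quality weights. When 1 of the 9 hearts was left out in turn, 26 to 31 of the 34 genes were lower in WT/E3A than in WT/WT, fewest without WT/E3A replicate 3. With all 13 libraries 12 were higher and 22 lower when the noted WT/WT heart alone was left out.

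Sample titles begin with C2, C3, C4 or C6. No source used here says what this prefix stands for, and WT/WT replicates 3 and 4 were the only libraries of C6. Within C3, which held 1 WT/WT, 1 WT/E3A and 2 E3A/E3A hearts, 21 genes were lower and 13 higher in WT/E3A than in WT/WT, with a median log2 difference of -0.04. Within the same prefix 21 were higher and 13 lower in E3A/E3A than in WT/E3A, and within C4 (1 E3A/E3A and, of the 9, 2 WT/E3A hearts) 26 were higher and 8 lower. Me1 was lower in E3A/E3A than in WT/WT by log2 differences of -0.27 within C3 and -0.21 within C2, where all hearts were noted. Insig1 and Slc25a1 in WT/E3A against WT/WT stood at -0.55 and -0.26 within C3. With the prefix as a block in the 9 libraries, which leaves WT/WT replicate 2 alone to carry that genotype, 23 genes were lower and 11 higher in WT/E3A than in WT/WT, with a median log2 fold change of -0.05 in place of -0.10.

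Among the cell marker lists, only the endothelial one was lower in WT/E3A than in WT/WT for every marker tested in the 9 libraries. With all 13 libraries the 5 endothelial and the 6 white adipocyte markers tested were all lower, with median log2 fold changes of -0.08 and -0.88. In the 9 libraries 4 of 4 macrophage, 4 of 5 fibroblast, 5 of 5 hepatocyte and 5 of 7 cardiomyocyte markers were higher. Schwann cell markers were 1 higher and 3 lower, white adipocyte markers 2 higher and 4 lower, and brown adipocyte markers 1 higher and 1 lower. All 5 endothelial markers were lower in WT/E3A than in WT/WT in the 9 libraries (median log2 fold change -0.08, range -0.23 to -0.00031). They were higher in E3A/E3A than in WT/E3A (median 0.11, range 0.03 to 0.17), with none called in either comparison. Their summed level in these hearts was 1132 to 1159 CPM in WT/WT, 999 to 1153 in WT/E3A and 1076 to 1268 in E3A/E3A. The 5 hepatocyte markers, a sign of liver RNA, summed to 0.196 to 55.0 CPM in WT/WT, 12.3 to 37.9 in WT/E3A and 0.200 to 13.3 in E3A/E3A, and Alb was at 0 in 2 hearts. Of 5 macrophage markers 4 were in the tables, at sums of 93.6 to 104 CPM in WT/WT, 99.5 to 105 in WT/E3A and 104 to 115 in E3A/E3A. The 5 fibroblast markers summed to 673 to 708, 679 to 759 and 708 to 780 CPM, and the 5 Schwann cell markers to 12.9 to 16.7, 13.1 to 14.7 and 14.3 to 18.8 CPM, in the same order of genotypes in the 9 hearts. The part of these cells in the values of the 34 genes was not tested.

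Of 47 further genes of the pathway, among them the carboxylases Acaca and Acacb and the NADPH enzymes, 45 were in the tables and all 45 were tested. In E3A/E3A against WT/WT 22 were higher and 23 lower in the 9 libraries, with a median of -0.0050. Gpam, which starts glycerolipid synthesis, was the 1 gene called, lower in E3A/E3A (log2 fold change -0.41, SE 0.06, adjusted p = 0.00769). Of all genes tested 0.271% were called in either direction and 0.216% lower. Gpam, with all 13 libraries, stood at -0.43 (SE 0.09) and was not called (adjusted p = 0.758). The other alternatives, some of which removed the call of Me1, were not read out for Gpam. In WT/E3A against WT/WT 23 were higher and 22 lower (median 0.0026), and in E3A/E3A against WT/E3A 26 were higher and 19 lower (median 0.023), with none called.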

How the data were processed

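Polyadenylated RNA of 13 heart samples was sequenced. The authors deposited whole-number read counts for each gene symbol in a table per heart. The submitters' processing notes name STAR 2.4.0, featureCounts 1.4.4 and the build GRCm38 (mm10). Strandedness and the handling of reads with several possible origins are not given in the sources used here, and they could move the values of near-identical genes. Groups came from the genotype label. The samples are taken as 1 heart each, which the labels do not state outright, so p-values measure only the spread between these samples, which may be technical.

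The tests used edgeR 4.0.16 in R 4.3.3. Low counts were filtered with filterByExpr by genotype, which kept 14387 genes in the 13 libraries and 14373 in the 9. TMM factors and a robust quasi-likelihood F test followed, in 1 fit over 3 genotypes, with Benjamini-Hochberg adjustment over all genes tested and a call at an adjusted p under 0.05. The fit was tried on counts simulated for the 9 libraries, with the same spread for every gene, and for E3A/E3A against WT/WT only. The fit of the 13 libraries was not tried in this way. CPM, group means and SDs over hearts used TMM factors over all 13 libraries. Transcript length and GC content came from GENCODE, positions and promoters from RefSeq (GRCm38.p6). SEs and p-values cover spread between hearts and counting error. Alternatives were RLE size factors, other filters, DESeq2 1.42.0, limma 3.58.1 (voom, with and without quality weights), the title prefix as a block, fits of 2 genotypes and leaving out each heart. Promoter shares over protein-coding genes and windows, and the adipocyte sum without Fabp4, were chosen after seeing the data. All 34 genes are named by role. Genes called, or else the 3 of lowest unadjusted p in each of the 6 comparisons (13 or 9 libraries), have values per heart. These values cover the 9 hearts without a note. For some of these genes the noted hearts are given only in part, as a range or not at all. The genes and lists were chosen with earlier results of these data known. Some genes of the wider pathway list are not reported here by name.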

Additional observations from a re-analysis of the deposited data

Results flagged for a closer look

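In 19 of 102 gene and genotype groups, 1 heart lay farther from the rest of its group than Dixon's 95% criterion allows; chance flags about 1 in 20 groups. All 19 hearts were noted libraries. In WT/E3A replicate 1, Pmvk (33.8 CPM), Mvk (17.1), Fdps (16.4), Srebf2 (69.7), Acss2 (95.5) and Fasn (82.3) were high, and Insig2 (26.0) and Sc5d (5.74) were low. In WT/WT replicate 1, Pmvk (33.4 CPM), Mvk (19.8), Fdps (19.1), Srebf1 (81.3), Srebf2 (73.8), Acss2 (75.3) and Fasn (131) were high, and Insig2 (28.0) and Elovl5 (12.4) were low. In E3A/E3A, where 2 of 5 hearts were noted, Scap (62.0 CPM) and Srebf1 (84.7) were high in replicate 1. These libraries came from all 3 genotypes. Not every value of the report is given both with and without them.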

How the results depend on the processing

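In the 13 libraries E3A/E3A against WT/WT went from 0 listed genes called by edgeR to 1 (Me1) with DESeq2 and with limma-voom with quality weights. In the 9 libraries the same contrast went from 1 (Me1) to 0 with limma-voom and with the title prefix as a block, and to 0 to 1 leaving out 1 heart in turn. The other 4 comparisons stayed at 0 under all alternatives run. Over all genes, E3A/E3A against WT/WT in the 9 libraries called 39 genes, 98 with DESeq2, 86 with quality weights, 10 with the block, and 8 to 43 leaving out 1 heart. WT/E3A against WT/WT called 3, and 0 (the block, or without WT/WT replicate 3 or 4) to 19 (DESeq2) under the alternatives. E3A/E3A against WT/E3A called 6, and 0 (limma-voom) to 38 (DESeq2). With the 13, E3A/E3A against WT/WT called 1 gene, 24 with DESeq2 and 73 with quality weights, and the comparisons with WT/E3A called 0, with 0 to 5 under these alternatives. No paired analysis was possible because the replicate numbers were given in accession order only. Under RLE factors, none of the 34 genes had a mean CPM that moved beyond its SD. Depth limits Elovl6 and Idi1 most.

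Fold changes (log2) of genes that were not called changed sign as follows, and the cause was not tested. Here and in the ranges below, only sign changes with a shift of at least 1 SE are listed, and smaller ones also occurred. Counting all of them, WT/E3A against WT/WT in the 13 libraries went from 3 listed genes higher to 10 with the prefix as a block. It went to 12 without WT/WT replicate 1. With the prefix as a block, E3A/E3A against WT/WT turned for Idi1 (0.43), Fdft1 (0.064), Sc5d (0.40), Insig2 (0.25) and Fads1 (0.10) in the 13 libraries and for Mvk (-0.0019), Fdft1 (0.053), Sc5d (0.099), Dhcr7 (0.18), Scap (0.059) and Fads1 (0.012) in the 9. WT/E3A against WT/WT turned in the 9 for Fdft1 (0.027), Sc5d (0.064), Dhcr7 (0.11), Scap (0.054) and Fasn (0.046). With quality weights in the 13, Fasn turned in E3A/E3A against WT/WT (0.018), Tm7sf2 in both comparisons with WT/E3A (0.16 over WT/WT, -0.14 for E3A/E3A over it) and Dhcr7 in E3A/E3A against WT/E3A (0.11).

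Leaving out 1 heart of the 13, E3A/E3A against WT/WT ranged from -0.39 to 0.77 for Pmvk, -0.49 to 0.19 for Fasn and -0.51 to 0.0030 for Thrsp, highest without WT/WT replicate 1. WT/E3A against WT/WT ranged from -0.52 to 0.31 for Mvk, -0.62 to 0.18 for Fasn, -0.40 to 0.20 for Thrsp, -0.84 to 0.86 for Pmvk and -0.16 to 0.31 for Acss2, lowest without WT/E3A replicate 1 and highest without WT/WT replicate 1. E3A/E3A against WT/E3A ranged from -0.41 to 0.78 for Pmvk, -0.19 to 0.093 for Dhcr7 and -0.30 to 0.11 for Acss2, highest without WT/E3A replicate 1. Of the 9, E3A/E3A against WT/WT ranged from -0.11 to 0.085 for Stard4 and -0.087 to 0.31 for Elovl6, lowest without E3A/E3A replicate 3. WT/E3A against WT/WT ranged from -0.094 to 0.015 for Scap, highest without WT/E3A replicate 3. E3A/E3A against WT/E3A ranged from -0.25 to 0.045 for Nsdhl, highest without WT/E3A replicate 2, and from -0.045 to 0.064 for Scap, lowest without WT/E3A replicate 3.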
